A study of Mus musculus with 6 samples.

Results

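The Kruppel-like factor (KLF) family was followed through 10 of its genes, Klf1, Klf2, Klf3, Klf4, Klf6, Klf7, Klf9, Klf10, Klf11 and Klf13, in red cell precursors of mouse embryos with and without STAT5. Members were all probe sets that the platform annotation of the Affymetrix Mouse430_2 array pairs with a single one of these symbols, which gave 32 of the 45037 probe sets and 10 of the 18193 genes on the array. There were 3 STAT5 KO pools and 3 wild type pools. Each pool held Ter119+ fetal liver cells of 3 to 5 embryos of 1 genotype at embryonic day 14.5, and was hybridised to 1 array. The allele, the strain and the part of each STAT5 gene that is removed are not given in the sources used here, so whether the knockout is confined to blood cells cannot be said. Ter119 is a surface antigen of maturing erythroid cells, and the fetal liver is the main organ of red cell production at this age.

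KLF proteins are transcription factors that share a block of zinc fingers at the C terminus, through which they bind CACCC and other GC-rich elements. Their N-terminal parts differ and recruit either activators or repressors. KLF1 activates globin, heme and membrane genes of red cells. KLF3 occupies many of the same elements and represses through CtBP corepressors, and in mouse erythroid cells KLF1 drives a promoter of Klf3. KLF9, KLF10, KLF11 and KLF13 can repress through SIN3A, and several other members are known as rapidly induced genes of endothelium, macrophages or stimulated cells. STAT5 is the factor that the erythropoietin receptor activates through JAK2, and the comparison asks which transcripts differ without it.

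The promoters of Klf1, Klf3, Klf9 and Aqp1 are shown for the elements that these factors and their regulators are known to bind. These genes were picked without a fixed rule. The windows of Klf2, Klf4, Klf6, Klf7, Klf11 and Klf13 are counted below and not printed. Each line holds 250 bases before the annotated start, 5′ to 3′, from RefSeq on GRCm38.p6. Capitals mark, on either strand, every CACCC, the core that GATA factors bind, GATAA, and the spaced palindrome that STAT5 prefers, TTCNNNGAA.
Klf1, chr8:84901732-84901981, + strand: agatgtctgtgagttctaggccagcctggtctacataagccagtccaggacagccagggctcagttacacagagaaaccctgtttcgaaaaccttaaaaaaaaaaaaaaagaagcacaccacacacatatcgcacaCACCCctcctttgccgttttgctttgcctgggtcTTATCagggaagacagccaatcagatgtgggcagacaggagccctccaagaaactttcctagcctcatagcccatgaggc
Klf3, chr5:64803271-64803520, + strand: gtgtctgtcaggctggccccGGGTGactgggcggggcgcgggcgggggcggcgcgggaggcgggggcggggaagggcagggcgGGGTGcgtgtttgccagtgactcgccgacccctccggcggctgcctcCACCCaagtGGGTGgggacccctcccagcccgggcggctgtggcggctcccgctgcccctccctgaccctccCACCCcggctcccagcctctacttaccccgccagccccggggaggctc
Klf9, chr19:23140976-23141225, + strand: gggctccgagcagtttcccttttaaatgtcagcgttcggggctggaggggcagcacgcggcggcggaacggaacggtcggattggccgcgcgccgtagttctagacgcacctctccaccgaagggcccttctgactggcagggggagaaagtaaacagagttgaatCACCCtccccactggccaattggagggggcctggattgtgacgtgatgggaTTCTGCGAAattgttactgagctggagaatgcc
Aqp1, chr6:55336049-55336298, + strand: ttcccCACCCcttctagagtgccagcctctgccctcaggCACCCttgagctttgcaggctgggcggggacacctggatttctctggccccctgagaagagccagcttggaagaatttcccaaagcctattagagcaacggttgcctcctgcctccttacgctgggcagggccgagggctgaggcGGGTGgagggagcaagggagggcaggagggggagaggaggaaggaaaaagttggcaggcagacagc

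Klf1 held 1 CACCC and 1 GATAA, with the GATAA 80 bases before the start, and Klf3 held 5 CACCC and no GATAA. Klf9 held 1 TTCNNNGAA and 1 CACCC, and Aqp1, a KLF1-activated gene described below, held 3 CACCC. Of the 10 members 9 had such a window. CACCC stood in 6 of the 9, GATAA in 1 and TTCNNNGAA in 1. Among 32851 windows of the same length over all genes, 52% held CACCC, 22.6% GATAA and 7.02% TTCNNNGAA. These are matches of letters within a short window, with overlapping matches counted apart, and they say nothing of binding.

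Values are the deposited linear intensities, called signals. A probe set was read against a control level of 162.5, the 95th percentile of all readings of the array's 27 Bacillus subtilis controls, whose targets mouse RNA lacks. Array medians lay between 177.2 and 184.8 in knockout pools, against 175.6 to 215.8 in wild type pools. Every Stat5a and Stat5b probe set was lower in each knockout array than in each wild type array. At the brighter Stat5a probe set knockout signals were 124.2 to 156.5, against 338.5 to 418.5 in wild type. Erythroid RNA in the pools was checked with 12 markers, of which 9 were measured, and each of these was above the control level on all 6 arrays. Their summed signal was 226690 to 285380 in knockout pools and 277190 to 290430 in wild type pools. The 13 measured hepatocyte markers summed to 131220 to 145210 in knockout pools and 151310 to 252670 in wild type pools. Among them Alb and Afp read at least 63.6% and 60.3% of the highest signal of their array, so RNA of hepatocyte genes was abundant in the pools. Which cells gave the KLF signals was not tested. In a pool of cells, fewer cells of a type and less RNA per cell cannot be told apart.

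No KLF gene passed the test between the genotypes. Limma's fit over all 45037 probe sets called 0 of the 32 member probe sets at an adjusted p under 0.05 (adjusted p between 0.558 and 0.994), where it called 0% of all probe sets. With a mean-variance trend it also called 0 of the 32 (adjusted p between 0.299 and 0.992), against 0.155% of all probe sets. The Stat5a and Stat5b probe sets did not pass either (adjusted p between 0.237 and 0.532, or 0.0899 and 0.235 with the trend, limma). A gene that did not pass is therefore not shown to be unchanged. At an unadjusted p under 0.05 there were 2 of 32, where the background was 8.01%. The submitters' criterion of an unadjusted p under 0.05 and over 1.5-fold was met by 1 of 32, a probe set of Klf6, against 5.19% of all (2.14% higher and 3.05% lower in knockout). All knockout arrays lay above all wild type arrays at 4 of the 32 (background 6.84%), and below them at 0 (background 8.95%). Both genotype means lay above the control level for 20 of the 32, the mean of a single genotype did for 3, and neither mean did for 9. No low values were filtered out. With 3 pools a genotype, precision was limited. At the brightest probe sets a gene's 95% confidence interval reached between 0.55 and 1.11 log2 units to either side. These intervals are not adjusted for the number of probe sets, and the adjusted test could miss larger changes. Aqp1, described below, differed by 2.52 log2 units and was not called without the trend (adjusted p = 0.162, limma).

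**Figure D1:**
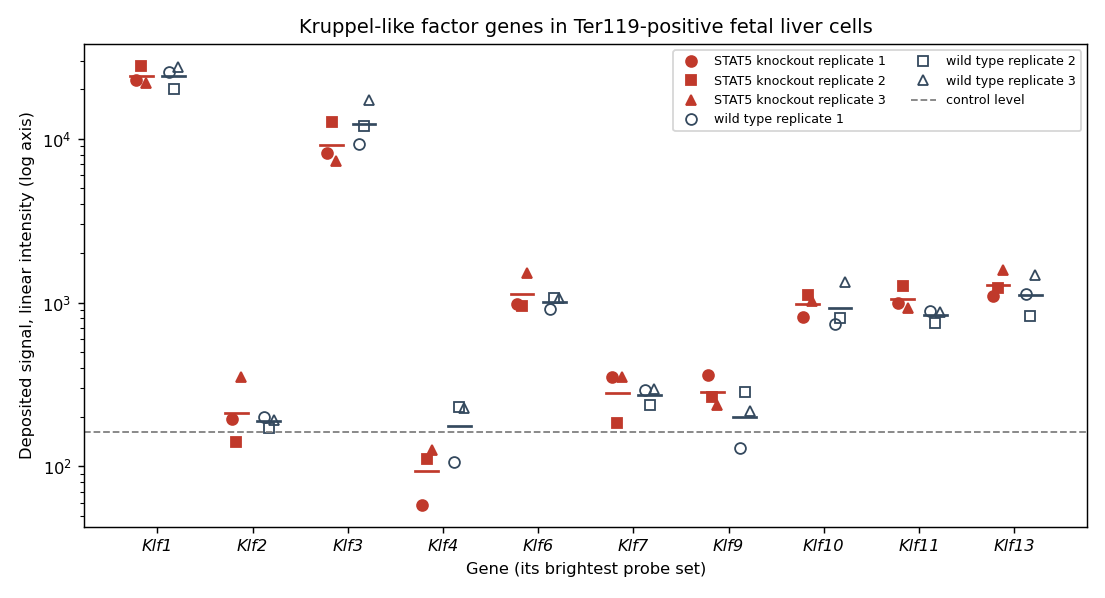
Signal of the brightest probe set of each KLF gene in each pool (vertical log axis, linear intensity), with STAT5 knockout pools as filled symbols left of the open wild type symbols, horizontal bars at the mean of log2 signal and the control level as a dashed line. The genotypes overlap for every gene except Klf11, where knockout signals of 927 to 1261 lie above wild type signals of 745 to 888. Over all genes 7.02% lie higher and 9.85% lower in knockout without overlap.

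Differences below are on the log2 scale, knockout minus wild type. They carry the standard error (SE) and 95% confidence interval from the limma fit without a trend. Each gene is described first at its brightest probe set. The median difference of all 18193 genes was -0.08, which is the level against which these values are to be read. It was -0.04 after quantile normalization and 0.03 after median centring.

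Klf1, the erythroid activator of the family, was measured by a single probe set, 1418600_at. Its signals were 22859, 27829 and 21978 in knockout pools, against 25579, 20258 and 27569 in wild type pools. The lowest reading and the second highest were both wild type, so the genotypes overlapped fully. The means were 14.56 ± 0.18 in knockout and 14.57 ± 0.23 in wild type (log2, SD, n = 3 each), a difference of -0.01 (SE 0.23), which turned to 0.10 after median centring. The interval of -0.58 to 0.55 corresponds to between 0.671-fold and 1.47-fold of wild type (adjusted p = 0.994, limma). The signal was at least 27.8% of the highest signal of its array, well short of the brightest probe sets.

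Regulators known to act on Klf1 had a median difference of 0.26 over 11 genes (0.13 to 0.28 without any 1 pool), 0 of which passed in limma with or without the trend (2 at an unadjusted p under 0.05, where 7.21% of all genes were). Groups did not overlap for 4 higher and 2 lower genes, where 7.02% and 9.85% of all genes did so. Myb, a factor of immature progenitors, had signals of 2497, 2005 and 1675 in knockout pools, against 917, 809 and 367 in wild type. Its difference was 1.65 (adjusted p = 0.484, or 0.101 with the trend, limma). Ldb1, a scaffold of GATA1 complexes, had 2117, 1747 and 1871 in knockout and 1230, 700 and 1320 in wild type pools, a difference of 0.87 (adjusted p = 0.600, or 0.257 with the trend, limma). Both were higher in each knockout pool than in each wild type pool without passing the test. Tal1, which binds beside GATA1, had a difference of -0.34 and Gata1 itself of -0.14.

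Klf3, the CACCC-binding repressor, was covered by 7 probe sets, all with a negative difference on the deposited scale (-0.45 to -0.11), where the faintest turned positive after quantile normalization and 1442920_at after median centring. At the brightest, 1454666_at, signals were 8192, 12645 and 7358 in knockout pools, against 9240, 11960 and 17195 in wild type pools. Knockout replicate 2 stood above 2 of the wild type pools, so the genotypes overlapped. The means were 13.16 ± 0.41 in knockout and 13.60 ± 0.45 in wild type, with a difference of -0.44 (SE 0.34, interval -1.28 to 0.40, adjusted p = 0.745, or 0.615 with the trend, limma).

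The Klf3 probe sets moved together between pools. At all 6 with a mean above the control level the highest array was wild type replicate 3, which lay 0.29 to 0.66 above the wild type mean on the log2 scale. Knockout replicate 2 was the highest knockout pool at all 6 as well (-0.08 to 0.11 against the wild type mean). Knockout replicate 3 lay at -0.77 to -0.25 over the 6 and was the lowest of all arrays at 4 of them. Without wild type replicate 3 the 6 differences ran from -0.20 to 0.10, and 3 of them were above 0. The probe sets share a transcript and the same arrays, so their likeness counts as 1 observation of the gene and not as several. Wild type replicate 3 also had the highest summed signal of 9 megakaryocyte markers, 15846, where the other wild type pools had 4528 and 6926 and the knockout pools 5037 to 6376. Of the 15846, Pf4 gave 7573 and Ppbp 3806. All of the 9 except Gp9 and Gp1bb were highest in wild type replicate 3, and Gp1bb was lowest there at 294. Gp5 (822 against 806 in knockout replicate 3) and Itga2b (981 against 924 in knockout replicate 1) were highest by little. The part of megakaryocytes in the Klf3 values was not tested.

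**Figure D2:**
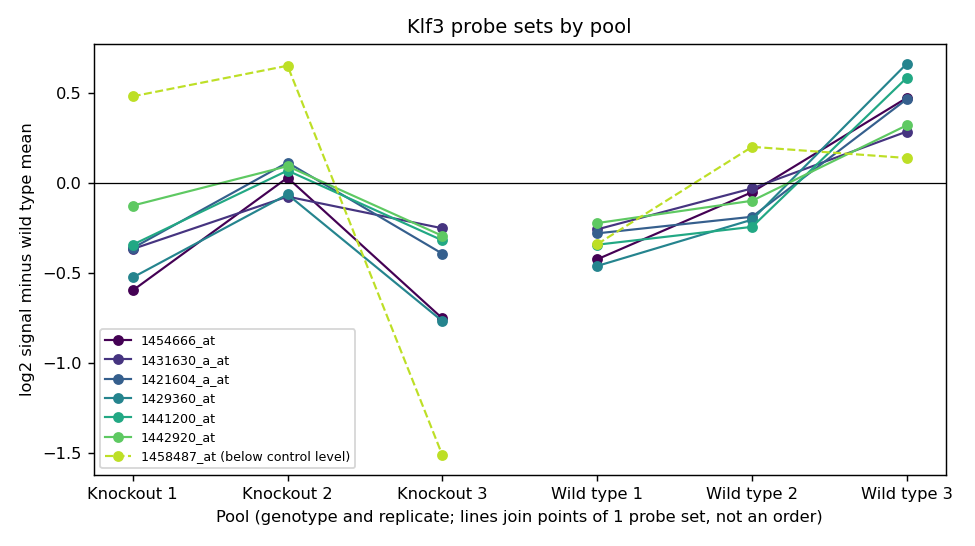
Log2 signal of each Klf3 probe set minus its wild type mean (vertical axis) in the 3 STAT5 knockout pools, left, and the 3 wild type pools, right. Lines join the points of 1 probe set and stand for no order of the pools. The 6 probe sets above the control level keep the same pattern, with wild type replicate 3 at 0.29 to 0.66 and knockout replicate 3 at -0.77 to -0.25.

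Klf11, a TGF-beta-induced repressor that works through SIN3A, was the only member whose brightest probe set separated the genotypes. Over all genes 7.02% were higher and 9.85% lower in knockout without overlap, so 1 of 10 members is near that share. At 1437241_at, the single probe set of Klf11, signals were 994, 1261 and 927 in knockout pools, against 888, 745 and 881 in wild type. Every knockout pool was above every wild type pool, with the nearest readings at 927 and 888. The means were 10.04 ± 0.23 in knockout and 9.71 ± 0.14 in wild type. The difference of 0.33 (SE 0.22, interval -0.22 to 0.88), which was 0.20 without knockout replicate 2, did not pass (adjusted p = 0.718, or 0.583 with the trend, limma). The exact two-sided permutation test gave p = 0.1, the smallest that 3 against 3 allows.

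Klf10, also TGF-beta-induced and an early response gene, had a single probe set, 1416029_at. Its signals were 817, 1109 and 1016 in knockout pools, against 738, 808 and 1336 in wild type pools. Wild type pools held both the lowest and the highest reading. The difference was 0.07 (SE 0.30, interval -0.68 to 0.82, adjusted p = 0.962, limma).

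Klf13, a SIN3A-binding repressor whose loss in mice impairs the maturation of erythroblasts, had 3 probe sets. The brightest, 1436316_at, gave signals of 1097, 1224 and 1571 in knockout pools, against 1125, 826 and 1467 in wild type. The genotypes overlapped, with knockout replicate 3 highest and wild type replicate 2 lowest. The difference was 0.21 (SE 0.30, interval -0.52 to 0.94, adjusted p = 0.860, limma). A fainter probe set, 1432543_a_at, differed by -0.16 and both genotype means of the third lay under the control level.

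Klf9, a glucocorticoid-induced repressor, was near background. Of its 7 probe sets, 1 had both genotype means above the control level. At that probe set, 1428288_at, signals were 361.0, 265.2 and 236.4 in knockout pools, against 128.7, 283.5 and 219.1 in wild type pools. Wild type replicate 1 was the lowest and lay below the control level, and the other pools overlapped. The difference was 0.50 (SE 0.36, interval -0.39 to 1.39, adjusted p = 0.730, limma), with 0.18 without wild type replicate 1 and 0.75 without wild type replicate 2. The lowest unadjusted p of the family, 0.0172, belonged to another Klf9 probe set, 1422264_s_at, with signals of 66.1, 41.3 and 75.9 in knockout pools and 14.6, 11.6 and 1.04 in wild type. All 6 of these readings were below the control level, so no fold is given (adjusted p = 0.558, or 0.299 with the trend, limma). The 7 probe sets gave differences on both sides of 0, from -1.02 to 3.40.

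Klf6, an early response gene expressed in many tissues, had 5 probe sets, all with a positive difference (0.02 to 0.77), also after quantile normalization and median centring. The brightest, 1433508_at, gave signals of 974, 958 and 1513 in knockout pools, against 911, 1069 and 1067 in wild type pools. Only knockout replicate 3 stood clear of the wild type pools. The difference was 0.15 (SE 0.26, interval -0.50 to 0.79, adjusted p = 0.892, limma), and it was -0.07 without knockout replicate 3.

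Groups did not overlap at the 2 faintest Klf6 probe sets, both drawn from the same sequence record. At 1447448_s_at signals were 240.5, 232.9 and 299.4 in knockout pools, against 229.5, 197.2 and 203.8 in wild type, a difference of 0.29 (adjusted p = 0.735, limma). At 1459718_x_at they were 159.3, 195.4 and 161.2 in knockout pools, against 74.2, 109.0 and 125.2 in wild type. This probe set met the submitters' criterion. Its knockout mean was 1.05-fold of the control level and every wild type array lay under that level, so no fold between genotypes is given. The probe set did not pass (adjusted p = 0.600, limma), and its name marks it as one that may bind other transcripts.

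Klf2, which acts in endothelium and lymphocytes and supports embryonic globin expression in mice, lay close to the control level. Signals at 1448890_at were 194.7, 141.0 and 349.4 in knockout pools, against 200.7, 171.4 and 192.7 in wild type pools. Knockout replicate 3 alone stood above the rest, and knockout replicate 2 alone was below the control level. The difference was 0.18 (SE 0.37, interval -0.72 to 1.08, adjusted p = 0.908, limma), and -0.18 without knockout replicate 3.

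Klf4, a factor of endothelium, monocytes and epithelia, had the most negative difference among the brightest probe sets. At 1417395_at signals were 58.2, 110.9 and 126.6 in knockout pools, against 106.5, 230.0 and 228.0 in wild type pools. Wild type replicates 2 and 3 were the only arrays above the control level, and wild type replicate 1 lay within the knockout range. The difference was -0.92 (SE 0.45, interval -2.03 to 0.19, adjusted p = 0.658, or 0.578 with the trend, limma). The wild type mean was 1.09-fold of the control level and every knockout array lay under that level, so no fold between genotypes is given. The difference was -0.58 without knockout replicate 1. At the second probe set, 1417394_at, signals were 57.7, 86.3 and 63.0 in knockout pools, against 127.9, 159.6 and 77.7 in wild type pools. All 6 arrays lay below the control level there, so no fold is given for the difference of -0.78.

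The 2 wild type pools above the control level at 1417395_at, replicates 2 and 3, had the most endothelial marker RNA. At 1417394_at wild type replicate 3 was instead the lowest wild type pool and lay below knockout replicate 2. The summed signal of 13 endothelial markers was 3919, 4659 and 4305 in knockout pools, against 4259, 7252 and 7131 in wild type pools. Of these 13 markers 11 had a negative difference (58.1% of all genes) and 3 were lower in knockout without overlap (9.85% of all genes). Their median was -0.29, and -0.73 without wild type replicate 1 but -0.15 without wild type replicate 2. Lyve1, of sinusoidal endothelium, had a difference of -2.56 (adjusted p = 0.442, or 0.103 with the trend, limma), and both genotype means of Tie1 were below the control level. The part of endothelial cells in the Klf4 values was not tested. Markers of macrophages, which also express Klf4, gave 29063 to 39590 in knockout pools and 22555 to 34825 in wild type.

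**Figure D3:**
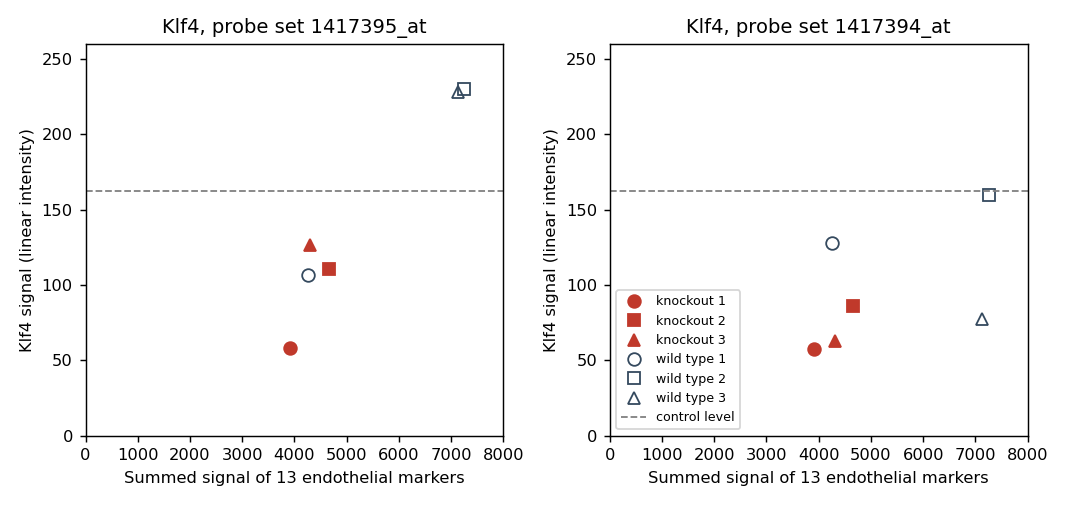
Klf4 signal at each of its probe sets (vertical axes, linear intensity) against the summed signal of 13 endothelial markers (horizontal axes) in each pool, with STAT5 knockout pools filled and wild type pools open and the control level dashed. At 1417395_at the 2 wild type pools with marker sums of 7252 and 7131 are the only ones above the control level, and at 1417394_at no pool is. There wild type replicate 3, with the sum of 7131, lies below knockout replicate 2.

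Klf7, best known from neurons, had 4 probe sets, of which 1 had neither genotype mean above the control level. The brightest, 1449439_at, gave signals of 350.0, 182.6 and 351.1 in knockout pools, against 291.8, 236.1 and 296.4 in wild type pools. Knockout pools held both extremes, and the difference was 0.05 (SE 0.33, interval -0.76 to 0.85, adjusted p = 0.979, limma). The mean of its 4 probe sets gave -0.09.

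**Figure D4:**
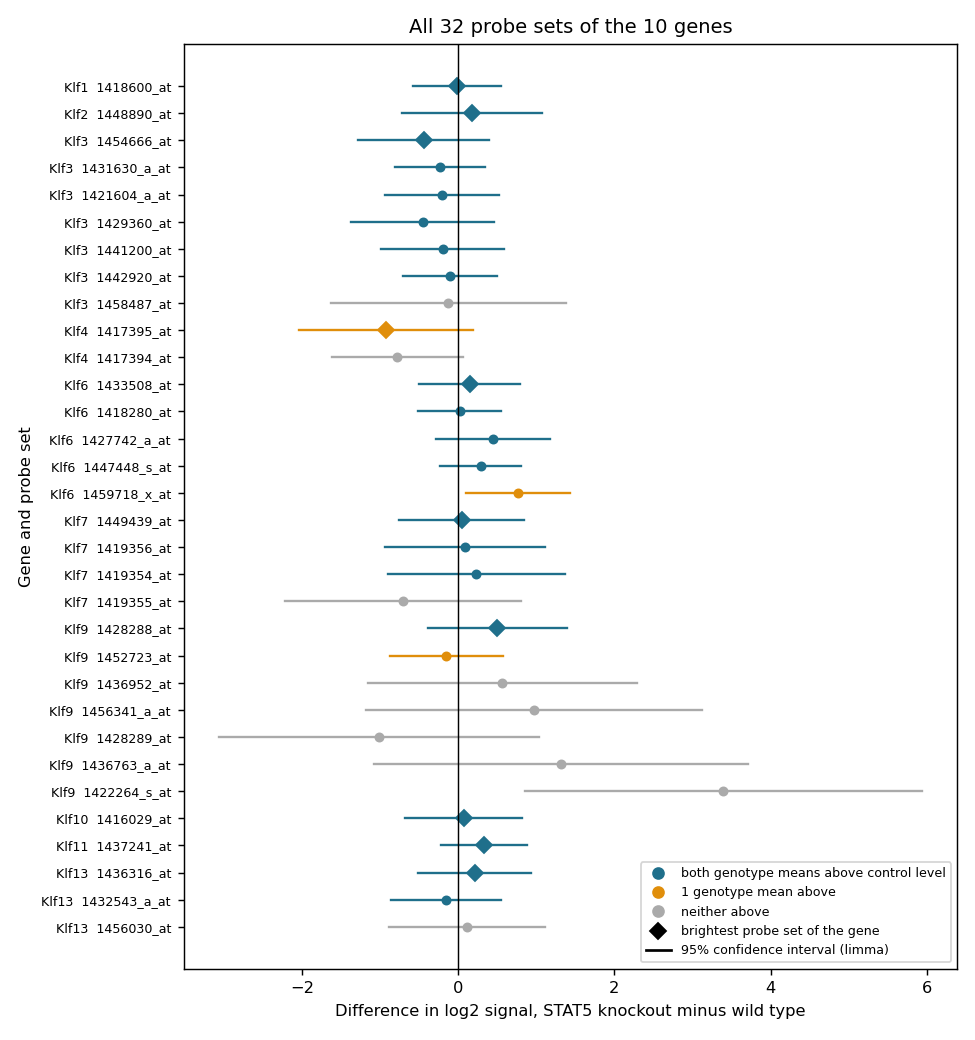
Difference in log2 signal, STAT5 knockout minus wild type (horizontal axis), with the 95% confidence interval of the limma fit, for all 32 probe sets of the 10 genes. Diamonds are the brightest probe set of each gene and colours show whether genotype means passed the control level. Intervals of all but 2 probe sets cross 0, and those 2, of Klf6 and Klf9, lie near or below the control level.

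Of 7 other KLF genes 6 were measured, and 0 passed the test in either limma fit (0 also at an unadjusted p under 0.05 at the brightest probe sets). Klf16 had a difference of 0.09, Klf5 of -0.18, Klf14 of -0.17 and Klf17 of -0.40, with both genotypes above the control level and overlapping. Klf12 and Klf15 had differences of -0.48 and -1.06, with Klf15 below the control level in both genotypes. Klf8 was not analysed here. The median of the 6 was -0.29 (-0.43 to -0.15 without any 1 pool). Corepressors and coactivators of the family had a median of 0.09 over 15 genes (-0.0043 to 0.21 without any 1 pool), with 0 called by either fit and 0 at an unadjusted p under 0.05. Groups did not overlap for 3 of them, all higher in knockout (background 7.02% of genes). Sin3a, the corepressor partner of KLF9, KLF10, KLF11 and KLF13, had a difference of 0.37, and Ep300, an acetyltransferase that KLF1 recruits, also 0.37 (adjusted p = 0.698 and 0.705, limma).

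Genes that KLF1 is known to activate in erythroid cells were then read. Of 35 listed 29 were measured, and 23 of these had a negative difference, where 58.1% of all genes did. The median was -0.18, against -0.08 over all genes, and -0.28 without knockout replicate 2. After quantile normalization 21 were negative (median -0.11, all genes -0.04), and after median centring 20 (median -0.07, all genes 0.03). Every knockout pool was below every wild type pool for 6 of the 29 (background 9.85%) and above for 3 (background 7.02%). The 6 were E2f2, a cell cycle factor, Epb42, Ank1, Sptb and Add2 of the membrane skeleton, and Tfrc, the transferrin receptor. Their differences lay between -0.45 and -0.27, and none passed the test (adjusted p between 0.641 and 0.724, limma). E2f2 gave signals of 12940, 15465 and 13561 in knockout pools, against 19630, 18188 and 19296 in wild type pools. Several list members are erythroid markers. The summed signal of the 9 measured markers was 226690, 285380 and 237420 in knockout pools, against 277190 to 290430 in wild type pools. It was thus below the wild type range in knockout replicates 1 and 3. Fech and Alas2 read at least 86.3% and 80.7% of the highest signal of their array, where a change may not register.

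Aqp1, the red cell water channel, went the other way from most of the list. Its signals were 13873, 20104 and 11016 in knockout pools, against 2247, 2579 and 2838 in wild type pools, which is 5.72-fold higher in knockout. It was not called by limma without the trend (adjusted p = 0.162) and rose in the fit with the trend (adjusted p = 0.00489), in which 0.121% of genes were called higher and 0.0934% lower. That call held without any 1 pool (limma with the trend, adjusted p of 0.00729 to 0.0351), and over 17 other ways of processing its adjusted p ran from 0.00489 to 0.632. Cd44, an adhesion receptor, had a difference of 0.80 with no overlap and did not pass (adjusted p = 0.573, or 0.192 with the trend, limma), and Cdkn1b, a cell cycle inhibitor, had 0.43. Over the 29 genes limma without the trend called 0, with 2 at an unadjusted p under 0.05, and the fit with the trend called 1.

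**Figure D5:**
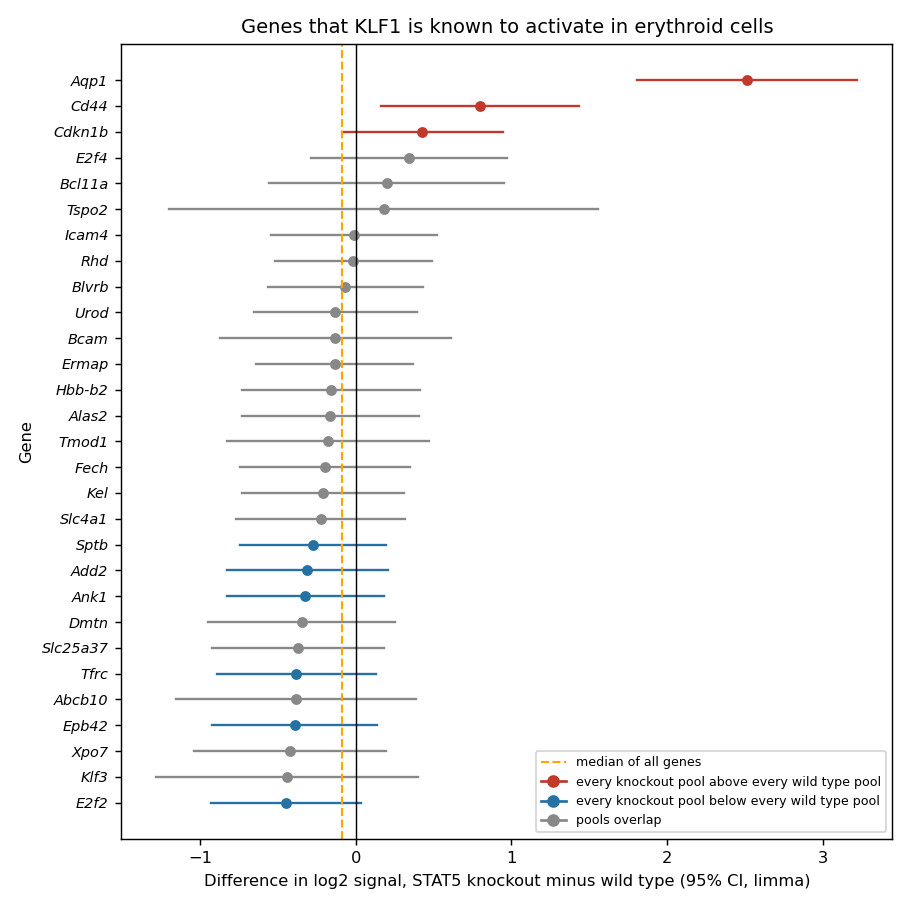
Difference in log2 signal, STAT5 knockout minus wild type (horizontal axis, 95% confidence interval of the limma fit), for the 29 measured genes that KLF1 is known to activate, at the brightest probe set of each. Colours show whether the 3 pools of each genotype overlap, and the dashed line is the median of all genes, -0.08. Aqp1 stands apart at 2.52, 6 genes lie lower without overlap, and Klf3 is itself on the list.

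KLF3 is known in mice to repress Klf8, Lgals3 and C1qtnf12, of which 2 were measured, both with positive differences. C1qtnf12, a secreted metabolic regulator, had signals of 10345, 8774 and 8528 in knockout pools, against 2636, 996 and 720 in wild type pools. Every knockout pool was above every wild type pool, and the mean was 7.43-fold higher. Limma without the trend did not call it (adjusted p = 0.300), and in the fit with the trend it rose (adjusted p = 0.0268). Over 17 other ways of processing its adjusted p ran from 0.0268 to 0.635. In the fit with the trend, leaving out any 1 knockout pool ended the call (0.143, 0.118 and 0.123 for replicates 1, 2 and 3). Leaving out wild type replicate 2 (0.126) or replicate 3 (0.0505) ended it as well, and leaving out wild type replicate 1 kept it (0.00152). The gene's 3 fainter probe sets gave differences of 3.04, 1.07 and 0.19, with overlap at the last. Lgals3, the gene of galectin 3, had signals of 1258, 1300 and 2867 in knockout pools, against 854, 1418 and 963 in wild type pools, with overlap and a difference of 0.67 (adjusted p = 0.699, limma). Lgals3 is abundant in macrophages, whose summed marker signal was also highest in knockout replicate 3. The part of macrophages in its value was not tested.

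Genes that KLF2 is known to activate numbered 7, of which 6 were measured, with a median of -0.21 and none called by either limma fit (2 at an unadjusted p under 0.05, against 7.21% of all genes). The median ran from -0.33 to -0.03 without any 1 pool. It was 0.45 without probe sets that can bind several transcripts, but then the globin genes Hbb-y and Hbb-bh1, both negative, had no value. Of the genes left, 2 were positive and 2 negative. Hbb-y read at least 83.7% of the highest signal of its array, where a change may not register. Among all 6, groups did not overlap for 2 higher and 2 lower genes (background 7.02% and 9.85%). Hbb-bh1, an embryonic globin, had signals lower in each knockout pool (difference -1.18, adjusted p = 0.607, or 0.268 with the trend, limma). Nos3, the endothelial nitric oxide synthase gene, was also lower without overlap (-0.60, adjusted p = 0.666, limma). Itgb7, an integrin gene of lymphocytes, went the other way without overlap, with signals of 1153, 1176 and 1638 in knockout pools, against 656, 1031 and 313 in wild type (1.13, adjusted p = 0.631, limma). Thbd, the endothelial thrombomodulin gene, was higher without overlap but below the control level on all 6 arrays.

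Lists of genes that share an inducer with members were read beside them. Immediate early genes, the class of Klf6 and Klf10, had a median of 0.31 over 21 genes, 15 of them positive, and groups did not overlap for 4 higher (background 7.02%) and 1 lower gene (background 9.85%). Myc (1.10, adjusted p = 0.439, or 0.0925 with the trend) and Ier2 (1.11, adjusted p = 0.532, or 0.154 with the trend) had the smallest p, and 0 of the 21 passed in either limma fit (3 at an unadjusted p under 0.05, against 7.21% of all genes). Glucocorticoid-responsive genes, the class of Klf9, had a median of 0.09 over 10 genes, with 5 positive and 5 negative and 0 without overlap. That median was 0.22 when knockout replicate 1 was left out and 0.24 when wild type replicate 3 was, and 7 genes were positive after quantile normalization or median centring. Per1 had the smallest p there (difference 0.63, adjusted p = 0.657, limma), followed by the receptor gene Nr3c1 (0.41). TGF-beta-responsive genes, the class of Klf10 and Klf11, had a median of 0.06 over 12 genes, which ran from -0.07 to 0.18 without any 1 pool and was 0.17 after median centring. Tgfb1 (0.44) and the feedback inhibitor gene Smad7 (0.43) were without overlap and higher in knockout (adjusted p = 0.669 and 0.674, limma). In each of these lists 0 genes were called by either limma fit, and the glucocorticoid and TGF-beta lists had 0 at an unadjusted p under 0.05.

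The genes whose log2 signal followed a member most closely over the 6 arrays were sought for Klf4, Klf9 and Klf3, the members with the largest differences. The search covered 12441 genes above the control level. Steap1 and Taf15 were closest to Klf4 (Pearson r = 0.994 each, over 6 arrays), Gtpbp10 and Fbrs to Klf9 (0.991 each) and Rgcc and Slc43a2 to Klf3 (0.982 and 0.979). They were picked as the highest of many and share the arrays' scaling, so no p is given. The r for Klf4 and Klf9 rest on dim readings of these members. Klf4 was above the control level only in wild type replicates 2 and 3, and Klf9 lay near that level. Rgcc had signals of 18016, 21796 and 17588 in knockout pools, against 20411, 22196 and 25936 in wild type, with wild type replicate 3 highest as for Klf3.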

How the data were processed

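RNA of 6 pools was labelled in 1 cycle, stained with streptavidin phycoerythrin and hybridised to 1 array each, per the labels' protocols. The deposited values are linear intensities, 1 per probe set and array. RMA and Partek appear, without versions, in the submitters' processing notes. The deposited intensities are not on a log scale, and each array has a mean of 500 once 2% at each end is left out. The sources used here do not give how they were scaled.

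Log2 of the deposited intensity was taken with no offset (0 values were 0 or below). Limma 3.58.1 in R 4.3.3 (lmFit, eBayes) was fitted over 45037 probe sets, without 64 control probe sets, with genotype as the only term and p-values adjusted over all of them (Benjamini-Hochberg, 0.05). A gene's value is that of its probe set with the highest mean, and 18193 genes had one. Gene names came from GEO's annotation of the platform (34945 with 1 symbol, 932 with several, 9160 with none), and 34741 matched RefSeq by Entrez ID. The files name no build. Intervals are at 95%, and the number of arrays limits the precision.

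The rule named all member probe sets, all measured genes of the other KLF and KLF3-repressed lists, and from each other list the genes past the threshold or the 2 with the smallest p, beside other list members chosen after their values were seen. Replicates are labelled as biological repeats and were taken as separate pools of embryos. The members, the lists and the tests were chosen with earlier results of these data known. Alternatives tried were the trend, with and without robust estimation, the methods' t-test, quantile normalization, median centring, leaving out the dimmest 50% of probe sets, array weights, the replicate block, leaving out each pool, adding 32 before log2, the mean of a gene's probe sets, and leaving out probe sets that can bind several transcripts by name. Scripts were tested on simulated data.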

Additional observations from a re-analysis of the deposited data

How the results depend on the processing

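The count of KLF probe sets called stayed at 0 under every alternative run except the submitters' criterion, which took 1. The methods' t-test called 0 of them, and 0 of all probe sets, after Benjamini-Hochberg adjustment. Over all probe sets the count moved from 0 to 70 with the trend, 69 with the trend and robust estimation, 20 without the dimmer 50%, 5 with 32 added and 2337 by the submitters' criterion. Over the listed genes it moved from 0 to 2 with the trend in either form, 1 without the dimmer 50% and 12 by the submitters' criterion. It was 0 for all 3 without any 1 pool and with the replicate block. Same-numbered pools correlated by 0.0912, 0.112 and 0.0924 in their deviations from the group means, each pool best with its own number, which is a hint from the data and not from the labels, so the numbers were not taken to pair them. With the trend and the replicate block, added after seeing the data, Aqp1 (adjusted p = 0.0211) and C1qtnf12 (0.0320) were still called, as with the trend after quantile normalization (0.00475 and 0.0404) or median centring (0.0120 and 0.0397), limma.

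Of 10 brightest probe sets, 4 (Klf3, Klf4, Klf9 and Klf11) kept their sign under all alternatives, within -0.674 to -0.203, -1.29 to -0.582, 0.183 to 0.797 and 0.201 to 0.445. Median centring turned Klf1 to 0.103 and Klf3 1442920_at to 0.00488, and quantile normalization turned Klf3 1458487_at to 0.0239. The mean of probe sets turned Klf7 to -0.0856 and Klf5 to 0.155. Leaving out probe sets that can bind several transcripts turned Klf12 to 0.000297. The KLF2 target median was then 0.446, with Hbb-y and Hbb-bh1 no longer in that list. Without 1 pool, signs changed within these ranges: Klf1 -0.141 to 0.0818, Klf10 -0.0947 to 0.334, Klf2 -0.182 to 0.473, Klf14 -0.478 to 0.0181 and Klf16 -0.158 to 0.241. The 3 probe sets of Klf13 ran over -0.41 to 0.0467, -0.00274 to 0.412 and -0.193 to 0.462. Of Klf3, 4 ran over -0.376 to 0.02, -0.368 to 0.0959, -0.219 to 0.0522 and -0.515 to 0.566. Of Klf6, 2 ran over -0.105 to 0.0858 and -0.0682 to 0.261. Of Klf7, 3 ran over -0.0826 to 0.644, -0.285 to 0.49 and -0.113 to 0.359. Of Klf9, 2 ran over -0.192 to 1.02 and -0.309 to 0.0599. The cause was not tested. The dim probe sets of Klf2, Klf4, Klf7 and Klf9 limit what can be said of these genes.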

Other observations

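SP factors, the relatives of the KLF proteins with the same kind of zinc fingers, were measured for 7 of 9 genes, with a median difference of -0.10 (0.02 after median centring, -0.21 to 0.12 without any 1 pool) and 0 called by either limma fit (0 at an unadjusted p under 0.05). Sp7, an osteoblast factor, had signals lower in each knockout pool (difference -0.44, adjusted p = 0.667, limma), and both genotype means of Sp8 were below the control level.

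Markers of other cells that express KLF genes were read as lists. Hepatocyte markers were negative in 13 of 13, where 58.1% of all genes were. Their median was -0.52 (-0.78 to -0.31 without any 1 pool), with Ahsg at -1.11 and Fgg at -1.07. Groups did not overlap for 7 of the 13, all lower in knockout (background 9.85% of genes). Macrophage markers were positive in 8 of 13 and negative in 5, where 58.1% of all genes were negative. Their median was 0.18 (0.02 to 0.295 without any 1 pool). Marco was the most positive at 0.75, with overlap. Vcam1, the adhesion receptor of erythroblastic islands, was at -0.68, and Cd163 lay below the control level. Megakaryocyte markers had a median of -0.12 over 9 genes, with Ppbp at -1.94 and Gp9 at 0.58. Without wild type replicate 3, where Ppbp read 3806 against 282 and 616 in the other wild type pools, the median was 0.05 and Ppbp was at -0.87. Without wild type replicate 1 they were -0.55 and -2.75. Granulocyte and lymphoid markers had a median of -0.22 over 13 genes, with S100a8 at -1.34 and S100a9 at -0.86. Without any 1 pool the median ran from -0.60 to -0.04, S100a8 from -2.17 to -0.83 and S100a9 from -1.52 to -0.47, with the lowest values without knockout replicate 2. Erythroid markers had a median of -0.16 over 9 genes (-0.28 to -0.12 without any 1 pool), with Tfrc at -0.38 and Epb42 at -0.39. Of the 9, 8 were negative (58.1% of all genes) and 3 were lower in knockout without overlap (background 9.85%). Their median was -0.105 after quantile normalization and -0.05 after median centring. No gene of these lists passed in limma with or without the trend, and 4 hepatocyte and 4 endothelial genes had an unadjusted p under 0.05, against 7.21% of all genes.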
